A study of Mus musculus with 20 samples.

Results

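RNA was sequenced from the optic nerve and corpus callosum of Zdhhc9 knockout and wild-type mice, and 6 genes of a mature oligodendrocyte state named for Klk6 were followed through all 20 libraries. The name is a label for the list, since bulk RNA does not resolve cell states. The genes were Klk6, Hopx, Anxa5, Serpinb1a, S100b and Pmp22, taken by symbol as 6 of the 46517 genes in the count table, and all 6 were measured and passed the filter on low counts. There were 5 knockout optic nerve libraries (KO_ON), 4 wild-type optic nerve libraries (WT_ON), 6 knockout callosum libraries (KO_CCg) and 5 wild-type callosum libraries (WT_CCg). Zdhhc9 encodes a palmitoyltransferase, an enzyme that attaches palmitate to proteins. The sample labels call the allele a knockout and the series text a knockdown. No Cre driver, age or sex was given in the sources used here. The callosum was cut out of frozen coronal brain sections, and the nerve was dissected whole. Each library was taken as a separate sample, and nothing states that each came from its own animal, so the p-values measure the spread between these libraries, which may be partly technical.

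Oligodendrocytes wrap axons in myelin, and their mature cells occur in states that differ in gene expression along the central nervous system. In mice, one mature state carries high Klk6, Hopx and Anxa5 and is most common in the spinal cord and hindbrain, while another carries Ptgds and Grm3. Klk6 is a secreted serine protease that can cleave myelin basic protein, and Serpinb1a belongs to the intracellular inhibitors of serine proteases. S100b and Anxa5 are calcium-binding proteins, Hopx is an unusual homeodomain protein that does not bind DNA itself, and Pmp22 is a membrane protein best known from the myelin of Schwann cells. S100b is also made by astrocytes, and Anxa5 by many cell types.

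Promoter sequences are shown for 3 of the genes, since Klk6, S100b and Pmp22 were the genes whose optic nerve levels did not overlap between the genotypes. Each runs from 250 bases before to 50 bases after a RefSeq transcription start on GRCm38.p6, 5′ to 3′ on the coding strand, and capitals mark matches to the motifs searched. The Klk6 promoter is chr7:43824294-43824593 on the plus strand, that of S100b is chr10:76253586-76253885 on the plus strand, and that of Pmp22 is chr11:63128732-63129031 on the plus strand.
Klk6, start 1: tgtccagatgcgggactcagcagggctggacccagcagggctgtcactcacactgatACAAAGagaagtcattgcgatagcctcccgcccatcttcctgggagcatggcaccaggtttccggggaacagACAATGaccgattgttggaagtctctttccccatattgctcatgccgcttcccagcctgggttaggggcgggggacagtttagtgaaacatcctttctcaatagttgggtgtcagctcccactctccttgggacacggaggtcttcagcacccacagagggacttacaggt
S100b: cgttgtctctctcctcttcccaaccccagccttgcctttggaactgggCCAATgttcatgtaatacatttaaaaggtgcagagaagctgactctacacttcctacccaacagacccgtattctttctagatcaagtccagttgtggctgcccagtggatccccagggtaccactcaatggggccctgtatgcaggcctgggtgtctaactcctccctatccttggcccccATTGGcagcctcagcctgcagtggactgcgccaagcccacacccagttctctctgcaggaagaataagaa
Pmp22, start 1: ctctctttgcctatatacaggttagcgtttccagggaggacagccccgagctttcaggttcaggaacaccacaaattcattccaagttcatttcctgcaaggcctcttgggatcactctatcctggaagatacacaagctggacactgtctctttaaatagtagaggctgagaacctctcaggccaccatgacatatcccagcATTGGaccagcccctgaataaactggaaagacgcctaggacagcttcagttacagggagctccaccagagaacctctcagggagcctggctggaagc

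The Klk6 promoter held the SOX cores ACAAAG at -193 and ACAATG at -121 from the start. The S100b promoter held CCAAT at -202 and, on the other strand, at -20, and the Pmp22 promoter held CCAAT on the other strand at -47. RefSeq gave 10 starts for 5 of the genes, with 2 for Klk6, 2 for Hopx, 1 for Anxa5, 1 for S100b and 4 for Pmp22. On both strands, CCAAT stood in 5 of these 10 promoters, those of Hopx, S100b and Pmp22, against 37.4% of all 32851 promoters of that length. ACAAAG and ACAATG each stood in 1 of the 10, both at Klk6, against 18.7% and 12.6% of all promoters. The E-box CAGCTG stood in 1 promoter, of Hopx, against 16.3% of all. The MYRF core CTGGCAC, the TATA box TATAAA and the AP-1 site TGACTCA were in 0 of the 10, against 5.01%, 13.6% and 5.2% of all promoters. The motifs do not overlap one another, except that CAGCTG is its own reverse complement.

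Column totals ranged from 15401130 to 26095622 estimated counts, and levels are given as CPM, each gene's count scaled to the total of its library. Zdhhc9 lay between 34.3 and 49.6 CPM in KO_ON and between 114.6 and 142.2 CPM in WT_ON, and between 43.1 and 56.8 CPM in KO_CCg and between 158.2 and 205.1 CPM in WT_CCg, so every library matched its genotype label. The summed level of 12 neuron markers ran from 180.4 to 353.0 CPM in KO_ON and from 149.9 to 327.1 CPM in WT_ON, and from 1511 to 6324 CPM in KO_CCg and from 1219 to 4363 CPM in WT_CCg. Markers of mature oligodendrocytes and myelin, 15 genes in all, summed to between 60945 and 90277 CPM in KO_ON, between 83266 and 95916 CPM in WT_ON, between 37606 and 71148 CPM in KO_CCg and between 58940 and 89651 CPM in WT_CCg. The tissues thus carried the markers of white matter tracts, and the callosum libraries carried neuronal RNA in amounts that differed several-fold between libraries. Of the wild-type callosum libraries, WT_CCg_685232, with 58940 CPM of the mature oligodendrocyte list and 4363 CPM of the neuron list, and WT_CCg_7198587, with 65114 and 3861 CPM, lay within the range of the knockout ones on both lists.

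The 6 genes had higher levels in the optic nerve than in the callosum, for 5 of them by a called difference. In wild-type mice, Klk6 was 41.0-fold, S100b 7.86-fold, Pmp22 5.08-fold, Anxa5 4.57-fold and Serpinb1a 2.28-fold higher in optic nerve than in corpus callosum, and these 5 of the 6 genes passed an adjusted p of 0.05 with a log2 fold change of at least 1. Hopx was 1.43-fold higher in the nerve, which passed the adjusted p but not the fold required. Of the 16440 genes tested, 13.0% were called higher in the wild-type nerve. In knockout mice the same 5 genes were called higher in the nerve, beside 14.9% of all genes tested. Every nerve library lay above every callosum library for 5 of the 6 genes in knockout mice and for 6 of 6 in wild-type mice, as it did for 20.6% and 20.3% of all genes tested.

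Klk6 (chr7:43824499-43832030, plus strand, build mm10, gene ENSMUSG00000050063.17) had the widest tract difference of the 6. Its level was 266.5, 255.0, 285.8, 239.7 and 292.8 CPM in the 5 KO_ON libraries and 374.0, 383.7, 318.1 and 341.3 CPM in the 4 WT_ON libraries. In KO_CCg it ran from 3.19 to 12.1 CPM with a median of 4.78 CPM, and in WT_CCg it was 10.2, 10.8, 5.09, 10.7 and 7.95 CPM. Every nerve library stood far above every callosum library. The log2 fold change of nerve over callosum was 5.65 (SE 0.30) in knockout mice and 5.36 (SE 0.33) in wild-type mice, with edgeR quasi-likelihood adjusted p-values of 4.86e-12 and 6.11e-11. By fold, Klk6 was number 128 from the top of the 16440 genes in knockout mice and number 139 in wild-type mice. In the callosum its level rested on 70 to 302 counts per knockout library and 123 to 271 counts per wild-type library.

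S100b (chr10:76253853-76261159, plus strand, ENSMUSG00000033208.7) was the most abundant of the 6. It measured 768.8, 816.8, 932.3, 862.8 and 773.9 CPM in KO_ON and 987.9, 1147, 1165 and 1223 CPM in WT_ON. In KO_CCg it ran from 76.2 to 117.1 CPM with a median of 91.6 CPM, and in WT_CCg it was 158.2, 184.1, 89.2, 150.5 and 160.6 CPM. The tracts did not overlap in either genotype, with log2 fold changes of nerve over callosum of 3.25 (SE 0.16) in knockout mice and 2.97 (SE 0.17) in wild-type mice. Their edgeR adjusted p-values were 1.3e-12 and 3.12e-11. The annotated span of S100b is overlapped on the opposite strand by that of Dip2a, but no exons of the pair overlap.

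Pmp22 (chr11:63128982-63159547, plus strand, ENSMUSG00000018217.11) had 214.1, 198.5, 212.8, 196.9 and 205.4 CPM in KO_ON and 272.3, 262.6, 238.6 and 237.6 CPM in WT_ON. In KO_CCg it ran from 21.0 to 35.6 CPM with a median of 26.9 CPM, and in WT_CCg it was 60.5, 61.0, 36.7, 52.4 and 46.0 CPM. The tracts did not overlap in either genotype. The log2 fold change of nerve over callosum was 2.99 (SE 0.15) in knockout mice and 2.34 (SE 0.16) in wild-type mice, with edgeR adjusted p-values of 1.3e-12 and 2.33e-10. Among Schwann cell markers, Pmp2, a lipid carrier of peripheral myelin, averaged 0.0253 CPM in KO_ON and 0.0533 CPM in WT_ON. Across a list of 8 Schwann cell markers, the summed level ran from 48.1 to 66.9 CPM in KO_ON and from 64.1 to 121.6 CPM in WT_ON, and from 47.1 to 95.6 CPM in KO_CCg and from 49.1 to 111.1 CPM in WT_CCg. Most of that sum was Cdh19, with means of 44.5 CPM in KO_ON, 54.2 CPM in WT_ON, 42.2 CPM in KO_CCg and 57.8 CPM in WT_CCg. Of those markers, 5 of the 8 had enough counts to be tested, and Foxd3, a neural crest factor, was at 0 in every knockout library and at means of 0.0224 CPM in WT_ON and 0.00827 CPM in WT_CCg, near 0 in all groups. In wild-type mice Scn7a was called higher in the nerve, at 1.73 (SE 0.58) on the log2 scale. It averaged 23.1 ± 29.4 CPM (SD) in WT_ON and 7.06 ± 3.22 CPM (SD) in WT_CCg. Prx was higher by 0.85, under the fold required, and Egr2 was called lower, at -3.33. In knockout mice 0 of the list were called higher and 1 lower.

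Anxa5 (chr3:36448923-36475894, minus strand, ENSMUSG00000027712.12) measured 455.5, 470.4, 377.5, 351.9 and 466.0 CPM in KO_ON and 468.4, 381.6, 412.3 and 406.2 CPM in WT_ON. In KO_CCg it ran from 63.4 to 114.6 CPM with a median of 74.5 CPM, and in WT_CCg it was 88.1, 121.8, 63.2, 90.9 and 107.3 CPM. The tracts were again apart in both genotypes. Nerve over callosum was 2.51 (SE 0.17) on the log2 scale in knockout mice and 2.19 (SE 0.18) in wild-type mice, with edgeR adjusted p-values of 1.12e-10 and 5.25e-09.

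Serpinb1a (chr13:32842092-32851185, minus strand, ENSMUSG00000044734.14) measured 113.3, 103.4, 124.1, 124.5 and 75.6 CPM in KO_ON and 117.4, 137.3, 142.1 and 166.1 CPM in WT_ON. In KO_CCg it ran from 28.3 to 47.9 CPM with a median of 41.2 CPM, and in WT_CCg it was 73.5, 66.7, 46.7, 70.5 and 61.5 CPM. Nerve and callosum did not overlap, although the lowest KO_ON library came close to the highest WT_CCg one. The log2 fold change of nerve over callosum was 1.53 (SE 0.16) in knockout mice and 1.19 (SE 0.18) in wild-type mice, with edgeR adjusted p-values of 8.43e-08 and 1.14e-05. Its estimated counts were whole numbers, within 0.01, in 10 of the 20 libraries, and 2 genes are close copies of it. Serpinb1b had 0.454 to 1.30 CPM in KO_CCg and 0.744 to 1.33 CPM in WT_CCg and averaged 0.117 CPM in KO_ON and 0.208 CPM in WT_ON, and Serpinb1c averaged at most 0.0319 CPM in any group. How reads shared by these copies were divided was not tested, and its level is uncertain to that extent.

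Hopx (chr5:77086988-77115121, minus strand, ENSMUSG00000059325.13) was the exception among the 6, with levels of the same order in both tracts. It measured 61.3, 55.6, 57.9, 51.1 and 70.4 CPM in KO_ON and 65.9, 71.8, 77.0 and 98.6 CPM in WT_ON. In KO_CCg it ran from 42.5 to 66.7 CPM with a median of 50.4 CPM, and in WT_CCg it was 48.4, 59.3, 60.9, 50.8 and 65.7 CPM. The wild-type nerve and callosum libraries touched without overlapping, and the knockout ones overlapped. The log2 fold change of nerve over callosum was 0.30 (SE 0.13) in knockout mice and 0.51 (SE 0.14) in wild-type mice, with edgeR adjusted p-values of 0.0431 and 0.00396. The first of these reached 0.15 when single libraries were left out. An adjusted p under 0.05 with no demand on size was met by 62.9% of all genes tested in knockout mice and 51.3% in wild-type mice. An antisense gene, Hopxos, overlaps the exons of Hopx and was at 0 in every library. The estimated counts of Hopx were whole in 12 of the 20 libraries.

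**Figure D1:**
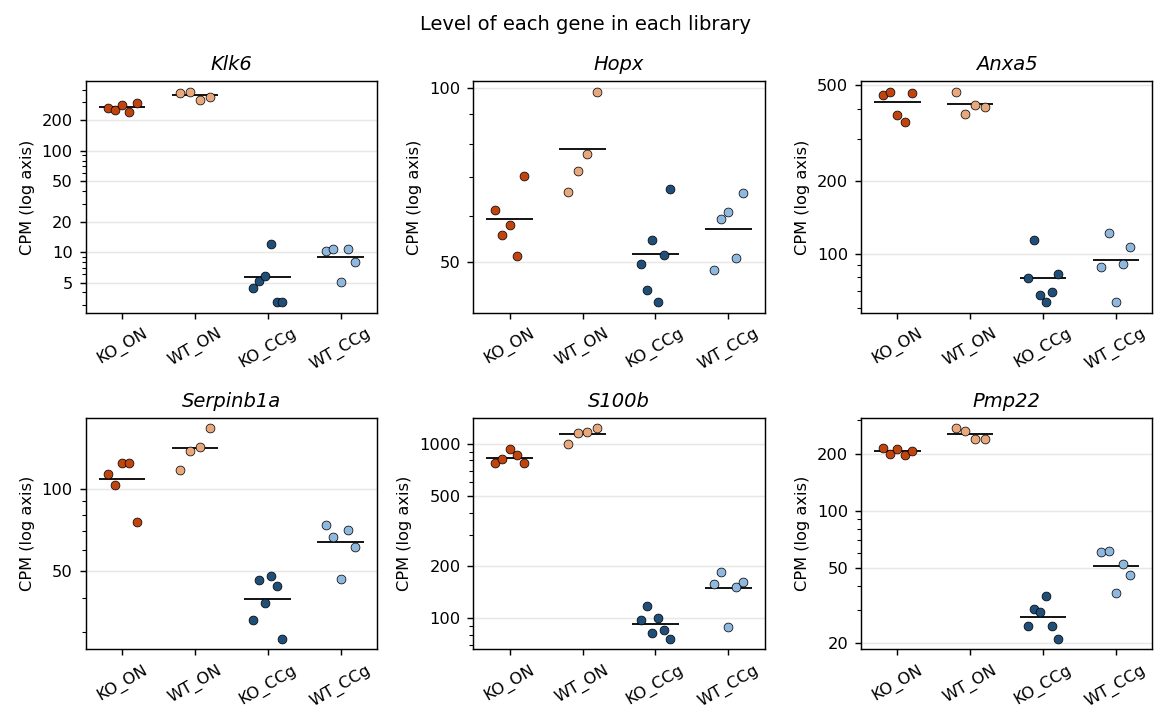
Level of each gene in CPM on a log axis in every library (points), with the group mean as a line, for KO_ON, WT_ON, KO_CCg and WT_CCg. The nerve groups stand above the callosum groups for each gene except Hopx, whose KO_ON libraries and lowest WT_ON library overlap the callosum range. The Klk6 group means are 268.0, 354.3, 5.64 and 8.93 CPM.

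Per kilobase of annotated exon, the order of the 6 genes differed between the tracts. In KO_ON the means were 559.9 CPM per kilobase for S100b, 238.8 for Anxa5, 177.1 for Klk6, 87.3 for Pmp22, 47.0 for Serpinb1a and 39.1 for Hopx. In WT_ON the same scale gave 762.0 for S100b, 234.7 for Anxa5, 234.1 for Klk6, 107.4 for Pmp22, 61.1 for Serpinb1a and 51.7 for Hopx. In KO_CCg the means were 62.8 CPM per kilobase for S100b, 44.8 for Anxa5, 34.0 for Hopx, 17.2 for Serpinb1a, 11.7 for Pmp22 and 3.73 for Klk6. In WT_CCg they were 100.1 for S100b, 53.0 for Anxa5, 37.6 for Hopx, 27.7 for Serpinb1a, 21.8 for Pmp22 and 5.90 for Klk6. Neighbours in the order whose means ± SD overlapped were Anxa5 and Klk6 in WT_ON, Serpinb1a and Hopx in both nerve groups, Anxa5 and Hopx in both callosum groups, Serpinb1a and Pmp22 in both callosum groups, and S100b and Anxa5 in KO_CCg. Klk6 was thus the third in the nerve and the last in the callosum, and Hopx was the last in the nerve and the third in the callosum.

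The other lists put the tract difference of the 6 genes beside that of the tissue. The median log2 fold change of nerve over callosum was 2.75 for the 6 genes in knockout mice and 2.27 in wild-type mice, against -0.001 and -0.026 over all genes tested. The list of 15 mature oligodendrocyte and myelin genes had medians of 0.49 in knockout mice, with 3 genes called higher, and 0.16 in wild-type mice, with 2 called higher. The 6 genes of the Ptgds and Grm3 type had medians of -0.08 in knockout mice and -0.29 in wild-type mice, with 2 called higher and 1 lower in each. In wild-type mice Ptgds and Apod were the 2 called higher and Jph4 the 1 called lower, with log2 fold changes of 3.52 for Ptgds, a prostaglandin D synthase, 1.84 for Apod, a lipid-binding apolipoprotein, -0.08 for Car2, a carbonic anhydrase, -0.51 for Il33, a cytokine, -0.87 for Grm3, a glutamate receptor, and -1.43 for Jph4, a junctophilin. Of these, Ptgds, Il33 and Grm3 were named after their values were seen.

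Cell types other than oligodendrocytes also differed between the tracts. Of 10 fibroblast and meninges markers, 9 were called higher in the nerve in each genotype, and their summed level ran from 3346 to 5532 CPM in KO_ON and from 2814 to 5080 CPM in WT_ON, against 91.6 to 197.6 CPM in KO_CCg and 87.2 to 151.8 CPM in WT_CCg. In the callosum fit alone, 9 of these 10 markers passed the filter. The 10 astrocyte markers summed to between 8462 and 11207 CPM in KO_ON and between 8520 and 10534 CPM in WT_ON, and to between 3626 and 4906 CPM in KO_CCg and between 4118 and 4643 CPM in WT_CCg, with 4 called higher and 1 lower in the nerve in each genotype. Of 9 microglia markers, 7 were called higher in the nerve in knockout mice and 6 in wild-type mice. All 12 neuron markers were called lower in the nerve in both genotypes. The part of these cell types in the tract difference of the 6 genes was not tested. In bulk tissue, fewer cells of a type and less RNA per cell cannot be told apart.

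Relatives of each gene other than Hopx were set beside it. The tract fit filtered genes over all 4 groups, so a gene low in the callosum could be tested through its nerve libraries. In the callosum fit alone, 8 of the S100 genes, 5 of the clade B serpins and 4 of the kallikreins and receptors were tested. Genes tested through the nerve alone, Klk10 among them, were bound to lean higher there, so the counts called higher are partly set by the filter. Of the annexins other than Anxa5, which bind membrane phospholipids with calcium, 9 of 11 could be tested and 6 were called higher in the nerve in each genotype, among them Anxa2 by 3.67 (SE 0.23) in knockout mice and 3.13 (SE 0.25) in wild-type mice on the log2 scale. Of the S100 genes other than S100b, 10 of 14 could be tested, and 10 in knockout mice and 8 in wild-type mice were called higher, S100a6 by 4.14 (SE 0.24) and 3.37 (SE 0.25). Of 5 relatives of Pmp22, 4 could be tested and 3 were called higher in each genotype, among them Emp3 by 4.83 (SE 0.18) in knockout mice and 4.36 (SE 0.20) in wild-type mice. Of 11 other clade B serpins, 6 could be tested, with 4 called higher and 1 lower in each genotype, and Serpinb6a, another intracellular protease inhibitor, was higher by 1.55 (SE 0.11) in knockout mice and 1.34 (SE 0.12) in wild-type mice. Among the 14 other kallikreins and their receptors, 6 could be tested, with 2 called higher and 1 lower in knockout mice and 2 called higher in wild-type mice. Klk10, a secreted protease, was one of those called higher, at means of only 0.799 CPM in KO_ON and 0.563 CPM in WT_ON, against 0.106 CPM in KO_CCg and 0.0978 CPM in WT_CCg. F2r, the thrombin receptor, had 6.29 CPM in KO_ON, 6.52 CPM in WT_ON, 9.63 CPM in KO_CCg and 8.29 CPM in WT_CCg and was called in neither genotype. Klk6 thus stood at a level far above the other kallikreins of the nerve, all 14 genes of that list summing to between 9.98 and 17.4 CPM in KO_ON and between 13.3 and 15.8 CPM in WT_ON.

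**Figure D2:**
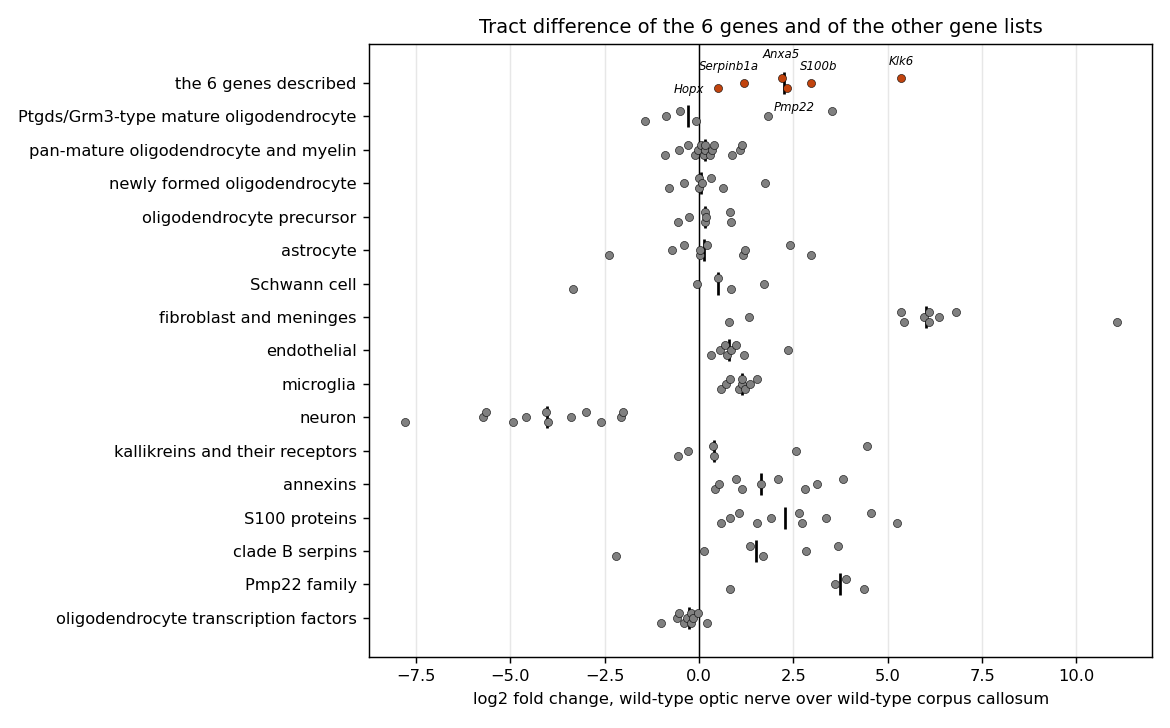
Log2 fold change of wild-type optic nerve over wild-type corpus callosum for every tested gene (points) of the 6 genes described and of 16 other lists, with the list median as a black line. The 6 genes run from 0.51 for Hopx to 5.36 for Klk6 around a median of 2.27, the fibroblast and meninges list has a median of 6.03, and the neuron list lies wholly below 0 with a median of -4.03.

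The question of what the Zdhhc9 knockout does to these genes was put to each tract apart. In the optic nerve, Klk6, S100b and Pmp22 had lower levels in every knockout library than in any wild-type library, but none of the 6 genes passed the adjusted p, so no change was called. Called genes made up 0.0129% of the 15556 genes tested, 2 genes in all. By edgeR, 5 of the 6 genes had an unadjusted p under 0.05 with a negative log2 fold change, against 2.64% of all genes tested. Complete separation with the knockout below was seen for 3 of the 6 genes, against 0.881% of all genes tested.

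Klk6 averaged 268.0 ± 21.8 CPM in KO_ON and 354.3 ± 30.2 CPM in WT_ON (SD, n = 5 and 4), which is 75.0% of the wild-type level in the fit. Its log2 fold change was -0.41 (SE 0.10), with an edgeR unadjusted p of 0.00109 and an adjusted p of 0.649. S100b averaged 830.9 ± 68.2 CPM in KO_ON and 1131 ± 101 CPM in WT_ON (SD), or 72.8% in the fit. Its log2 fold change was -0.46 (SE 0.10, edgeR adjusted p = 0.581). Pmp22 averaged 205.6 ± 7.91 CPM in KO_ON and 252.8 ± 17.4 CPM in WT_ON (SD), or 80.7% in the fit, with a log2 fold change of -0.31 (SE 0.07, edgeR adjusted p = 0.662). By unadjusted p these 3 genes ranked 26, 25 and 35 of the 15556. With DESeq2 all 3 passed, at adjusted p-values of 0.00958 for Klk6, 0.00328 for S100b and 0.00288 for Pmp22. That fit called 35 genes, or 0.225% of those tested. By limma-voom with sample weights 0 of the 6 passed, with adjusted p-values of 0.209 for Klk6, 0.209 for S100b and 0.222 for Pmp22.

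The other 3 genes overlapped between the genotypes in the nerve. Hopx averaged 59.3 ± 7.24 CPM in KO_ON and 78.3 ± 14.2 CPM in WT_ON (SD), and 4 of 5 knockout libraries lay below every wild-type one. Its log2 fold change was -0.42 (SE 0.14, edgeR adjusted p = 0.845). Serpinb1a averaged 108.2 ± 20.2 CPM in KO_ON and 140.7 ± 20.03 CPM in WT_ON (SD), with a log2 fold change of -0.40 (SE 0.15, edgeR adjusted p = 0.845) and 3 of 5 knockout libraries below every wild-type one. Anxa5 averaged 424.3 ± 55.4 CPM in KO_ON and 417.1 ± 36.7 CPM in WT_ON (SD), with a log2 fold change of 0.02 (SE 0.11, edgeR adjusted p = 0.987). The log2 fold changes were thus negative for 5 of the 6 genes in the nerve, against 47.2% of all genes tested, and that of Anxa5 turned negative when any of 5 single libraries was left out.

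In the corpus callosum the log2 fold changes of knockout over wild type were negative for all 6 genes, from -0.95 for Pmp22 to -0.19 for Hopx, and again none passed the adjusted p. Called genes made up 0.0387% of the 15519 genes tested, 6 genes in all. By edgeR, 3 of the 6 genes had an unadjusted p under 0.05 with a negative value, against 6.89% of all genes tested, and a negative value of any size was found for 52.5% of all genes tested. Complete separation with the knockout below was seen for 1 of the 6 genes, Pmp22, against 0.67% of all genes tested. DESeq2 called 3 of the 6, with adjusted p-values of 0.0144 for Serpinb1a, 0.0255 for S100b and 0.000456 for Pmp22. That fit called 174 genes, or 1.12% of those tested. limma-voom with sample weights called Serpinb1a, S100b, Pmp22 and Anxa5, in a fit that called 2786 genes, or 18% of those tested.

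Pmp22 averaged 27.6 ± 5.22 CPM in KO_CCg and 51.3 ± 10.3 CPM in WT_CCg (SD, n = 6 and 5), or 51.8% in the fit. Its log2 fold change was -0.95 (SE 0.17), with an edgeR unadjusted p of 0.000116, rank 16 of the 15519, and an adjusted p of 0.112. The highest knockout library, at 35.6 CPM, stood just below the lowest wild-type library, WT_CCg_685232, at 36.7 CPM, and with TMM scaling the groups overlapped. Serpinb1a averaged 39.7 ± 7.81 CPM in KO_CCg and 63.8 ± 10.53 CPM in WT_CCg (SD), with 5 of 6 knockout libraries below every wild-type one, and had a log2 fold change of -0.73 (SE 0.17, edgeR adjusted p = 0.22). S100b averaged 93.2 ± 14.9 CPM in KO_CCg and 148.5 ± 35.5 CPM in WT_CCg (SD), with 3 of 6 knockout libraries below every wild-type one and a log2 fold change of -0.72 (SE 0.18, edgeR adjusted p = 0.247). WT_CCg_685232 was the lowest wild-type library for each of these 3 genes and also for Klk6 and Anxa5. Without it, Pmp22 and S100b passed, at log2 fold changes of -1.06 (SE 0.16) and -0.87 (SE 0.13) and an edgeR adjusted p of 0.0316 for each. That fit called 41 genes, or 0.263% of those tested.

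Klk6 averaged 5.64 ± 3.31 CPM in KO_CCg and 8.93 ± 2.43 CPM in WT_CCg (SD), with a log2 fold change of -0.71 (SE 0.34, edgeR adjusted p = 0.446). The knockout libraries included both the lowest and the highest of the 11, and without the highest one, KO_CCg_693452, the log2 fold change was -1.10 (edgeR adjusted p = 0.346). Anxa5 averaged 79.5 ± 18.7 CPM in KO_CCg and 94.3 ± 22.1 CPM in WT_CCg (SD), with a log2 fold change of -0.30 (SE 0.19, edgeR adjusted p = 0.529). Hopx averaged 51.5 ± 8.61 CPM in KO_CCg and 57.0 ± 7.21 CPM in WT_CCg (SD), with a log2 fold change of -0.19 (SE 0.11, edgeR adjusted p = 0.505). For these 3 genes the groups overlapped widely.

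**Figure D3:**
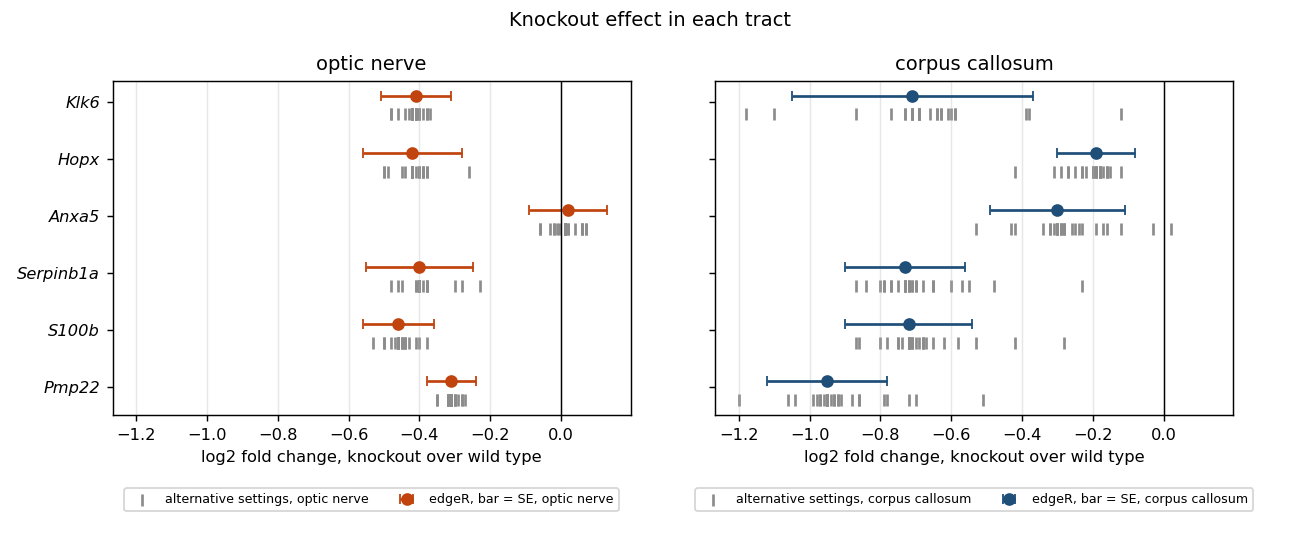
Log2 fold change of knockout over wild type in the optic nerve (left) and corpus callosum (right) by edgeR (point, bar = SE), with the values under every alternative setting as grey marks below each point. In the nerve 5 genes lie between -0.46 and -0.31 with Anxa5 at 0.02, and in the callosum the 6 genes run from -0.95 to -0.19, with alternatives for Klk6 that reach from -1.18 to -0.12.

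The knockout effect was not shown to differ between the tracts for any of the 6 genes. The difference of the log2 fold changes, nerve minus callosum, was 0.65 (SE 0.21) for Pmp22, with an edgeR unadjusted p of 0.00563 and an adjusted p of 0.725. It was 0.34 (SE 0.24) for Serpinb1a, 0.32 (SE 0.24) for Anxa5, 0.29 (SE 0.39) for Klk6, 0.27 (SE 0.22) for S100b and -0.21 (SE 0.19) for Hopx, with edgeR adjusted p-values from 0.784 to 0.891. Of the 16440 genes tested, 0.0% were called, and 6.83%, or 1123 genes, had an unadjusted p under 0.05. DESeq2 and limma-voom with sample weights also called 0 genes.

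The callosum values of the 6 genes stood beside shifts in the wider cell type lists. All 15 mature oligodendrocyte and myelin genes had negative log2 fold changes in the knockout callosum, with a median of -0.58 and 0 called, and 12 of the 15 had an unadjusted edgeR p under 0.05. In the nerve 11 of the 15 were negative, with a median of -0.17 and 0 called. Hapln2, a link protein of the node of Ranvier, averaged 94.2 CPM in KO_CCg and 201.0 CPM in WT_CCg, and Trf, the iron carrier transferrin, averaged 1547 CPM in KO_CCg and 2501 CPM in WT_CCg. All 12 neuron markers had positive values in the knockout callosum, with a median of 0.65 and 0 called, and their summed level had a median of 4616 CPM in KO_CCg and 2248 CPM in WT_CCg. The list of the Ptgds and Grm3 type had a median of -0.02 in the callosum and 0.06 in the nerve, against -0.72 and -0.41 for the 6 genes and -0.013 and 0.012 over all genes tested. That list was split in the callosum, with 3 genes negative and 3 positive. Apod was at -0.84 (SE 0.20, edgeR adjusted p = 0.238) and Car2 at -0.49 (SE 0.18, edgeR adjusted p = 0.381), and the highest value was 0.21. Schwann cell markers had a median of 0.05 in the callosum and -0.20 in the nerve, and astrocyte markers, with 9 of 10 negative in the callosum, had medians of -0.11 and 0.00, with Gfap at -0.58 (SE 0.15, edgeR adjusted p = 0.257) in the callosum. Microglia markers were negative for 9 of 9 genes in the callosum, 7 with an unadjusted edgeR p under 0.05, with medians of -0.34 there and -0.01 in the nerve. Their summed level did not overlap in the callosum, at 379.5 to 447.1 CPM in KO_CCg and 478.0 to 522.7 CPM in WT_CCg. The part of microglia in the knockout values of the 6 genes was not tested. Transcription factors of the lineage had negative values for 10 of 10 genes in the callosum, with medians of -0.29 there and 0.10 in the nerve, and newly formed oligodendrocyte markers had medians of -0.33 and -0.02. By edgeR, none of the genes in these lists or in the 5 gene families was called in either tract.

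With the summed level of the mature oligodendrocyte list as a covariate, the callosum log2 fold changes were -0.51 for Pmp22, -0.42 for Hopx, -0.28 for S100b, -0.23 for Serpinb1a, -0.12 for Klk6 and 0.02 for Anxa5. With the neuron list as a covariate they were -0.78 for Pmp22, -0.63 for Klk6, -0.55 for Serpinb1a, -0.53 for S100b, -0.29 for Hopx and -0.12 for Anxa5. In the nerve the mature list as a covariate gave -0.43 for Klk6, -0.40 for Hopx, -0.38 for S100b, -0.32 for Pmp22, -0.23 for Serpinb1a and -0.06 for Anxa5. The callosum libraries carry numbers of 2 digits or longer ones, which no label explains. Among the 2-digit libraries, 2 in each genotype, Pmp22 had a log2 fold change of -1.20, Klk6 of -1.18, Serpinb1a of -0.87, S100b of -0.72, Hopx of -0.25 and Anxa5 of -0.16. Among those with long numbers the values were -0.72 for Pmp22, -0.65 for S100b, -0.60 for Serpinb1a, -0.39 for Klk6, -0.32 for Anxa5 and -0.16 for Hopx. In the nerve, KO_ON_48038A7 and KO_ON_48118A4 carry numbers with a letter, which no label explains, and no wild-type library does. Without them, 0 of the 6 genes were called. Every alternative setting, this one included, left Klk6 between -0.48 and -0.37 in the nerve. S100b lay between -0.53 and -0.38 there, and Pmp22 between -0.35 and -0.27.

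**Figure D4:**
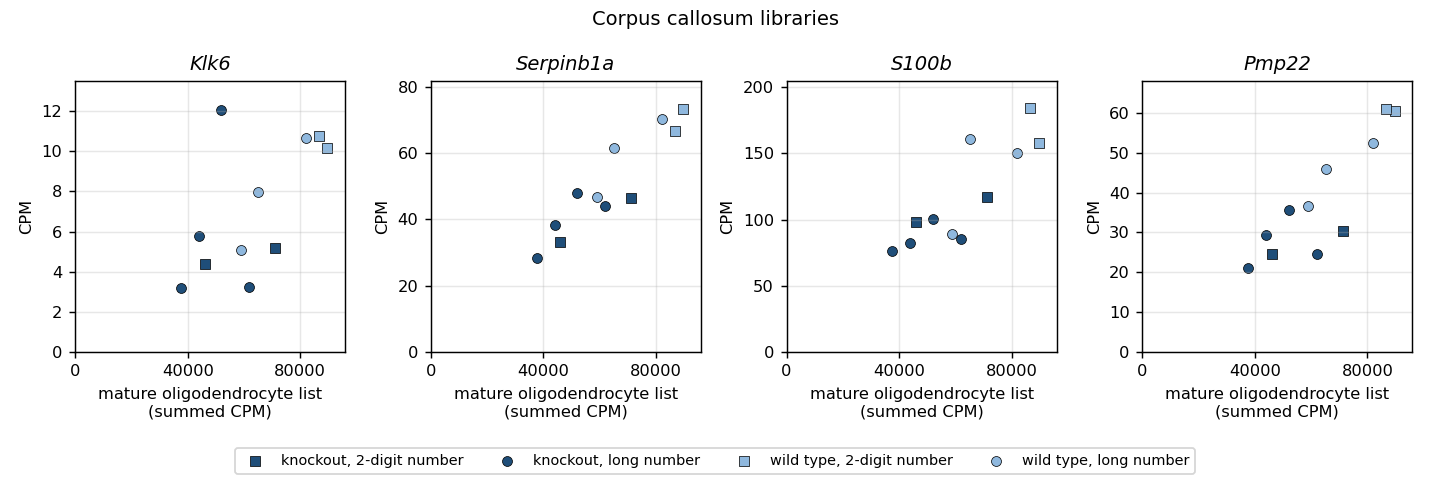
Levels of Klk6, Serpinb1a, S100b and Pmp22 (CPM) in each corpus callosum library against the summed level of 15 mature oligodendrocyte and myelin genes (CPM), with knockout libraries dark and wild-type ones light, and squares for 2-digit sample numbers. The 3 libraries with most of the mature list are wild type and have the 3 highest levels of Serpinb1a and Pmp22, the highest Klk6 value of 12.1 CPM is a knockout library, and the wild-type library with 58940 CPM of the list lies among or next to the knockout ones.

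The likeness of the 6 genes to one another was taken within genotype, from log2 CPM as deviations from the mean of each genotype, with all orders of the libraries permuted within genotype and p-values adjusted over the 15 pairs of a tract, a form chosen after seeing the data. In the optic nerve (9 libraries), 1 of 15 pairs passed, Klk6 with Pmp22, with r = 0.867 and rho = 0.9 (exact permutation p = 0.00313 and 0.00208, adjusted 0.0469 and 0.0312), and r = 0.807 without the 2 libraries farthest from the median. In the corpus callosum (11 libraries), 7 pairs passed by Pearson's r and 6 by Spearman's rho, 5 of them by both. The share of all gene pairs that would pass was not taken in either tract. The counts thus do not show a likeness particular to the 6 genes. Klk6 and Pmp22 had r = 0.901 and rho = 0.927 (exact permutation p = 0.000428 and 0.000197, adjusted 0.00642 and 0.00295), and r = 0.865 without the 2 farthest libraries. Serpinb1a and Pmp22 had r = 0.865 and rho = 0.882 (exact permutation p = 0.00138 and 0.0013, adjusted 0.0103 and 0.00972), and r = 0.696 without the 2 farthest. S100b with Pmp22 and Klk6 with Serpinb1a also passed by both, at r = 0.772 and r = 0.712, with r = 0.474 and r = 0.538 without the 2 farthest. Serpinb1a with S100b and Anxa5 with S100b passed by r alone, at 0.732 and 0.771, and had r = 0.314 and r = 0.465 without the 2 farthest libraries. Klk6 with S100b passed by rho alone, at 0.727.

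Hopx was negatively correlated with Serpinb1a in the callosum, with r = -0.739 and rho = -0.836 (exact permutation p = 0.0142 and 0.0036, adjusted 0.0407 and 0.018), and r = -0.519 without the 2 farthest libraries. With Pmp22, Klk6, S100b and Anxa5 its r was -0.658, -0.615, -0.473 and -0.0197, none of which passed. Within the 6 knockout callosum libraries alone, 0 of 15 pairs passed by r after adjustment, 4 had an unadjusted exact permutation p under 0.05, and the median r was -0.0533. There the 6 pairs among Klk6, Serpinb1a, S100b and Pmp22 had r from 0.513 to 0.93, and the 5 pairs with Hopx had r from -0.905 to -0.121. Pooled over both genotypes, 7 pairs passed in the callosum and 2 in the nerve. Among the 7 callosum libraries with long numbers, pooled likewise, 3 pairs passed.

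The genes whose pattern was most like each of the 6 were taken over all 20 libraries, each as its deviation from the mean of its tract, among 13020 genes. The nearest to Klk6 was Pmp22 itself (r = 0.878), followed by Bcap31 (0.818), which encodes a protein of the endoplasmic reticulum, and Gpr137b (0.805), a lysosomal membrane protein. The nearest to Pmp22 were Bmp2 (0.926), a secreted growth factor, Apod (0.912) and Hapln2 (0.909), and that of Bmp2 was 0.988 in the callosum and 0.196 in the nerve. Among the nearest to Serpinb1a were Gltp (0.937), a glycolipid transfer protein, and Fez1 (0.932). The nearest to S100b were Sccpdh (0.931), Mettl7a1 (0.927) and Selenop (0.926), a secreted selenium carrier. The nearest to Anxa5 were Fbln7 (0.961), a matrix protein, Tm4sf1 (0.942) and Clec3b (0.892), and those of Hopx were lower, with Zfp78 (0.72), Pld6 (0.716) and Hacd2 (0.705). By likeness to Klk6, S100b was number 8 and Serpinb1a number 18. Anxa5 was number 2582 (r = 0.285) and Hopx number 5835 (r = 0.039). Klk6 was in turn number 273 for S100b and number 447 for Serpinb1a. By likeness to Hopx, the other genes of the 6 stood between number 1700 and number 6203. The same libraries and genotype difference enter all of these values, which describe likeness only.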

How the data were processed

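The deposited table holds the authors' estimated counts (expected counts) of reads per gene for 20 libraries, made per the labels' protocols from a stranded mRNA kit, on the mm10 build that the submitters' processing notes name. The sources used here state neither a quantifier version nor its annotation. Of 46517 identifiers, 46005 matched GENCODE M21, whose exons give gene positions and lengths. Promoters are RefSeq's, on GRCm38.p6. Counts were rounded and filtered (filterByExpr, minimum count 10, total 15), scaled by TMM and tested with edgeR 4.0.16 (quasi-likelihood, Benjamini-Hochberg over all genes), each tract apart for genotype and all 4 groups together for tract and for the difference. Genes passed at an adjusted p under 0.05, with a log2 fold change of at least 1 between tracts. CPM use column totals. Correlations used log2 CPM with a prior count of 2. The code was tested on simulated data. Alternatives were DESeq2 1.42.0, limma 3.58.1, other scalings and filters, covariates and left-out libraries. Besides the 6 genes, named genes were the up to 2 per list with the smallest p in each tract, the 2 most abundant per family, and the 3 most alike per gene by r, of which 1 is not reported here. The 6 genes and the lists were chosen with earlier results of these data known.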

Additional observations from a re-analysis of the deposited data

Results flagged for a closer look

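In 24 sets of library values, 1 for each of the 6 genes in each group, the highest or lowest library was set against its nearest neighbour, and 1 library stood apart by Dixon's 95% criterion. Klk6 was at 12.1 CPM in KO_CCg_693452, while the next highest knockout callosum library had 5.77 CPM, a gap of 0.71 of the group's range, past the critical value for 6 libraries. Chance alone marks about 1 in 20 such sets, so 1 of 24 is near that rate.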

How the results depend on the processing

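For the knockout effect in the callosum, the count of the 6 genes called was 0 by edgeR with TMM, 3 with DESeq2, 4 with limma-voom and sample weights, 2 in the joint fit of 4 groups, 3 with the fibroblast list as a covariate, and 0 to 2 when 1 library at a time was left out. In the nerve it was 0, against 3 with DESeq2, 0 with limma-voom and sample weights and 0 in each leave-one-out fit. Over all genes, the callosum had 6 calls, against 174 with DESeq2, 2786 with limma-voom and sample weights, 41 in the joint fit, 41 without WT_CCg_685232 and 57 with the fibroblast list as a covariate, and the nerve had 2, against 35 with DESeq2. The cause of these differences between settings was not tested. Anxa5 changed sign in the callosum, to 0.02, with the mature oligodendrocyte list as a covariate. In the nerve Anxa5 was -0.06 with that covariate, -0.06 without the knockout libraries whose number holds a letter, and -0.03 to 0.07 when 1 library at a time was left out. The 5 genes higher in the nerve were called under every alternative run in both genotypes. With a replicate block on the sample number, 5 of the 6 genes were called in each genotype and 0 for the difference, with 4291 wild-type and 4918 knockout calls against 4309 and 4950 without it. Libraries with the same number in both tracts had correlations of deviations from -0.153 to 0.133, so a paired design was not shown. Knockout and wild-type libraries of a tract share no numbers. Of the 15 gene pairs in the callosum, 7 passed in all 11 libraries, 7 as deviations from genotype means, 3 in those with long numbers and 0 in the knockout ones, and of those in the nerve 2 passed, against 1 as deviations, these alternatives being chosen after seeing the data. Klk6 in the callosum lay between -1.10 and -0.59 when 1 library at a time was left out.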
